A study of Rattus norvegicus with 10 samples.

Results

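Ras and Rap small GTPases were examined in macrophages that had taken up myelin. The set holds 9 genes, Rras2, Rras, Mras, Hras, Nras, Rap1a, Rap1b, Rap2a and Rap2b, and its members were all probe sets to which the array annotation gives exactly 1 of these symbols. The rule found 12 probe sets of 8 genes among 31042 probe sets tested. Hras had 0 probe sets of its own, since the 1 probe set with its symbol also carries that of another gene, so Hras was not analysed here. Resident peritoneal macrophages from rats of the Hsdcpb:WU strain (200-224 grams) spent 3 days in culture either with isolated myelin at 100 µg/ml (mye-macrophages, n = 5) or without it (control macrophages, n = 5). IFNγ and IL-1β, at 100 ng/ml, were then given to both groups for 9 hours, so that no group without these cytokines was compared. Each sample was hybridized to 1 Affymetrix rat array, and a level is given as the authors' log2 RMA signal, a background-corrected and normalized summary of the probes of a probe set. The labels number the samples 1 to 5 in each group without saying whether the numbers mark animals or cultures. Samples with the same number deviated together from their group means, and they are called a pair here. P-values measure the spread between these samples, which may be technical in part.

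Small GTPases of this family are molecular switches, active when bound to GTP and inactive when bound to GDP. Exchange factors load them with GTP, GTPase-activating proteins turn them off, and lipid anchors hold them at membranes. Hras and Nras encode classical Ras proteins that relay growth factor signals. Rras, Rras2 (also called TC21) and Mras form the R-Ras group, whose proteins share effectors with classical Ras and act in adhesion and survival. Rap1 proteins control integrin adhesion, and in macrophages they take part in phagocytosis through the complement receptor, while Rap2 proteins act on cytoskeletal kinases.

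The promoters of Rras2, the member that rose, and of Rras, its relative in the same group that did not pass the test, are printed as the 250 bases before the annotated start of each gene (RefSeq, build GRCr8). Rras2 lies on the minus strand at chr1:177737552-177737801 and Rras on the plus strand at chr1:104636811-104637060. Capitals mark matches to any of the motifs searched for on both strands.
Rras2: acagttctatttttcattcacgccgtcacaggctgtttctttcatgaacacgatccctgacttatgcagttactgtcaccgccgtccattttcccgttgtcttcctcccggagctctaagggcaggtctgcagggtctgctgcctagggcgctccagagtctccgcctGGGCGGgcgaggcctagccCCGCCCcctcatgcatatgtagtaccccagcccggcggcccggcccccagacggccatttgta
Rras: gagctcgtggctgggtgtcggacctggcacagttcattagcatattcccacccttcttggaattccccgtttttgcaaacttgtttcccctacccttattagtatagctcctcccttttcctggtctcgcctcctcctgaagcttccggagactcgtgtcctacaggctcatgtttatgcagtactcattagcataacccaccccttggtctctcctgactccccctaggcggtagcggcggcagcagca
The Rras2 window held 2 GC boxes (GGGCGG), which begin 82 bases before the start on the strand of the gene and 63 bases before it on the opposite strand. A GC box stood in 30.5% of 33469 promoter windows of the same length. Neither window held a CCAAT box (CCAAT, in 34% of windows), a TATA box (TATAAA, 12.9%), an E-box (CACGTG, 5.59%), a cAMP response element (TGACGTCA, 1.59%), an AP-1 element (TGANTCA, 6.34%) or the nuclear receptor half-site AGGTCA (14.1%). A direct repeat of this half-site with a 1-base spacer, as PPAR dimers bind, was thus not in either window, nor was one with a 4-base spacer, as LXR dimers bind. These letters were searched in 250 bases only, and a match is no evidence of a bound site.

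Rras2 was the member that was higher in mye-macrophages, and it was so on both of its probe sets. Of the 12 member probe sets, 2 were called higher and 0 lower at an adjusted p under 0.05 (limma with the replicate number as a block, Benjamini-Hochberg over all 31042 probe sets), where 0.412% of all probe sets were called in either direction and 0.126% were called higher. On the first Rras2 probe set (1372133_at), the control samples 1 to 5 had log2 signals of 5.24, 4.81, 4.74, 5.11 and 5.28. The mye-macrophage samples 1 to 5 had log2 signals of 5.65, 5.28, 5.30, 5.38 and 5.66 on the same probe set. The groups met at 5.28, the value of the highest control and the lowest mye-macrophage sample, while every pair rose, by 0.27 to 0.56 on the log2 scale. The log2 fold change was 0.42 (1.34-fold, 95% interval 1.20 to 1.49, standard error 0.07, adjusted p = 0.0444 from blocked limma).

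The second Rras2 probe set (1382058_at) gave the same direction. Its control samples 1 to 5 had log2 signals of 4.59, 3.97, 3.99, 4.58 and 4.43, and the mye-macrophage samples 1 to 5 had 5.06, 4.65, 4.60, 4.91 and 4.74. The groups did not overlap, with 4.60 in the lowest mye-macrophage sample against 4.59 in the highest control. Over the array, the groups did not overlap in 0.734% of probe sets. The log2 fold change was 0.48 (1.40-fold, 95% interval 1.24 to 1.58, standard error 0.08, adjusted p = 0.0415 from blocked limma), and the signal was higher in 5 of 5 pairs, by 0.31 to 0.67. Control samples 2 and 3 were the lowest 2 on both probe sets, and pairs 2 and 3 had the largest differences on both. In the exact permutation test of 5 against 5 samples (two-sided, without the pairing), p was 0.0159 for the first probe set and 0.00794 for the second, the smallest that this design allows. In bulk RNA, more Rras2 per cell and more cells that carry it cannot be told apart.

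The call on Rras2 rested on the pairing and on all 5 pairs. Limma without the block gave the same log2 fold changes with standard errors of 0.13 and 0.15, and neither probe set passed (adjusted p = 0.996 for both, unadjusted p = 0.00744 and 0.00709). Leaving out any 1 of the 5 pairs also ended both calls, with log2 fold changes of 0.38 to 0.46 and adjusted p of 0.0645 to 0.153 on the first probe set, and 0.43 to 0.52 and 0.0580 to 0.148 on the second (blocked limma). With p-values adjusted over the 15521 probe sets of larger interquartile range, a filter of the size the methods use, they were 0.0222 and 0.0208 (blocked limma, 2.69% of probe sets called).

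RNA quality and cell type markers were compared between the groups as well. RNA quality was read from the log2 gap between the 3 prime and 5 prime control probe sets of beta-actin. This gap averaged 3.02 ± 0.30 (SD) over the 5 control samples and 3.30 ± 0.32 over the 5 mye-macrophage samples (exact permutation test, two-sided, without the pairing, p = 0.190). It was larger in mye-macrophages in 4 of 5 pairs. With this gap as a covariate in the blocked fit, Rras2 had log2 fold changes of 0.43 and 0.48, standard errors of 0.09 and 0.10, and adjusted p = 0.281 on both probe sets (limma). Some transcripts of oligodendrocytes and myelin were higher in mye-macrophages. Read by the probe set of highest mean, 2 of 9 measured marker genes were called higher by blocked limma, Mobp by 3.60 and Bcas1 by 1.76 on the log2 scale. Of the 17 probe sets of these genes 3 were called higher, the third being a probe set of Mbp (myelin basic protein) that rose by 3.37, in 5 of 5 pairs (adjusted p = 0.00175 from blocked limma), while the other Mbp probe sets gave -0.20 and -0.04. The summed linear signal of the list, which takes the Mbp probe set of highest mean (-0.20), ran from 175 to 214 in control and from 218 to 282 in mye-macrophages. The myelin markers Mog and Mag stayed low, with mean log2 signals of 2.36 and 1.15 in control and 2.49 and 1.27 in mye-macrophages. Cnp, which with Mbp gave most of the summed signal, had a log2 fold change of 0.08. Cldn11 had 0.01, Ermn -0.08 and Mal -0.14. Control sample 1 had the highest Mobp signal of the controls (3.44 against at most 1.34 in the other 4), and its pair differed by 0.41 and 0.47 in Rras2. The part of these transcripts in the Rras2 difference was not tested. Among the 10 macrophage markers, 9 had a mean signal above the median of all values (2.32), Cd163 lay below it, and 0 were called by blocked limma (1 at an unadjusted p under 0.05). The summed signals of platelet markers (355 to 3544 in control and 408 to 3998 in mye-macrophages) were higher in mye-macrophages in 5 of 5 pairs. Most of this sum was Pf4, with mean log2 signals of 10.41 in control and 10.72 in mye-macrophages. Of the 6 platelet genes measured 4 had log2 fold changes above 0, while Gp9 (-0.02) and Gp5 (-0.10) did not. The summed signals of neuronal markers (21.3 to 23.6 and 22.9 to 24.9) were also higher in 5 of 5 pairs. Only 1 of the 8 neuronal markers had a mean signal above the median of all values. In either list 0 genes were called (blocked limma, 2 platelet genes and 1 neuronal gene at an unadjusted p under 0.05). The summed signal of lymphoid markers was higher in 3, that of mast cell and granulocyte markers in 3, and that of mesothelial and fibroblast markers in 2 of 5 pairs, and again 0 genes were called (blocked limma, 1, 0 and 0 at an unadjusted p under 0.05).

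**Figure D1:**
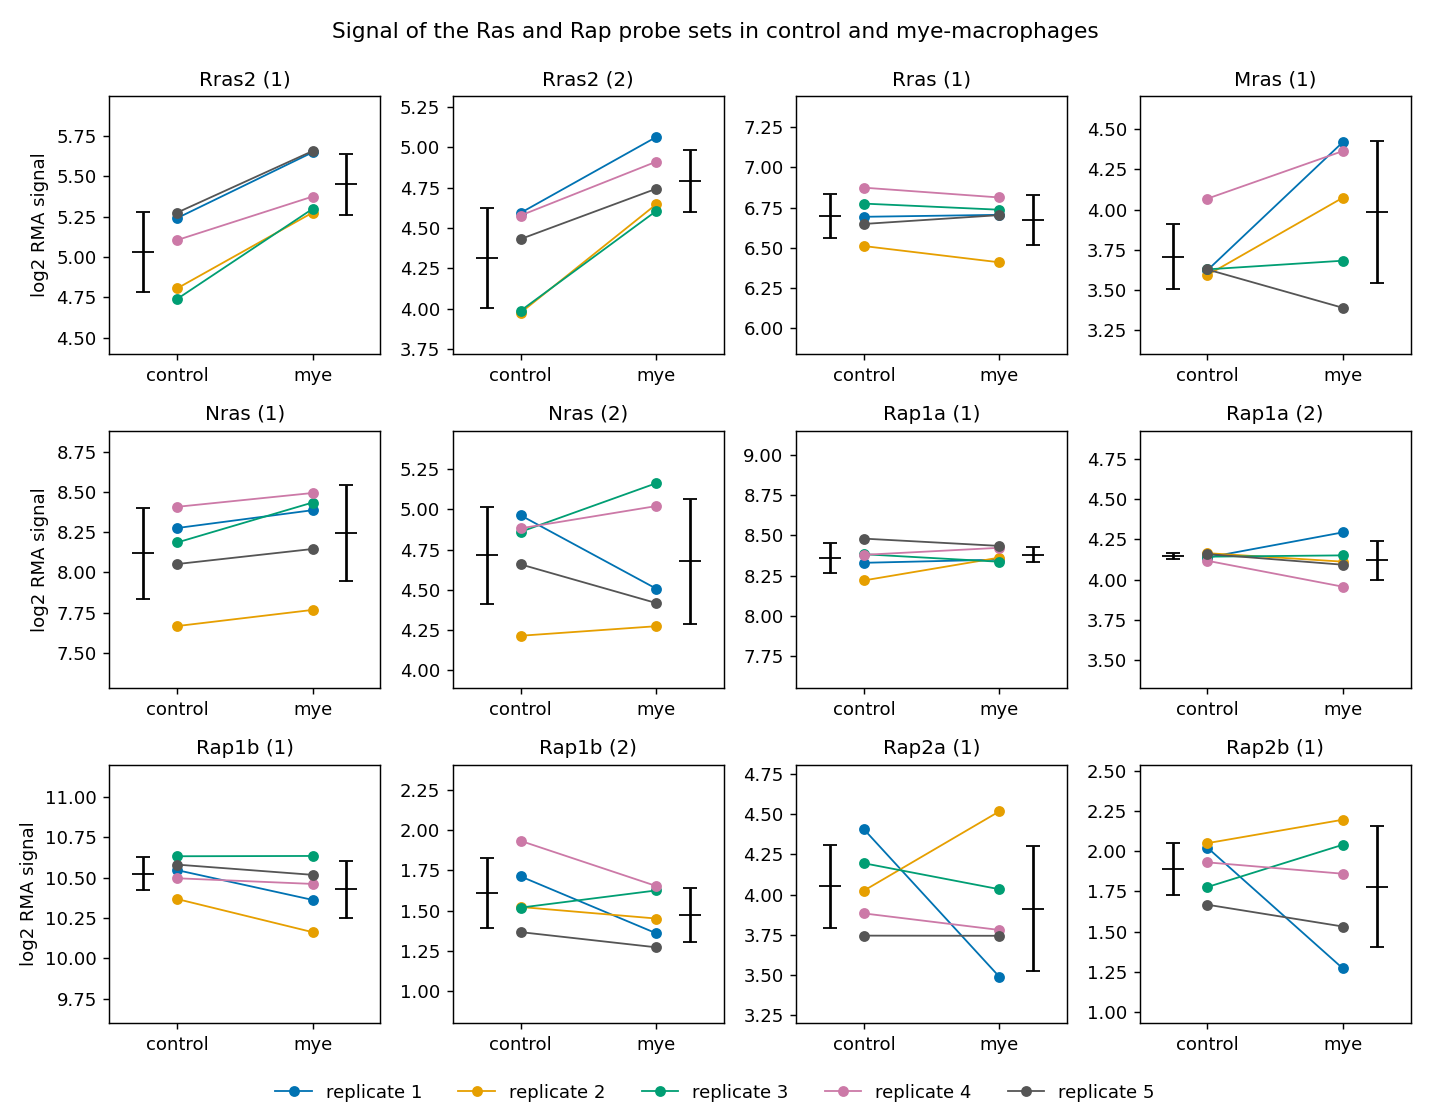
Log2 RMA signal of the 12 member probe sets, each panel spanning 1.6 log2 units, with lines joining samples of the same replicate number and bars giving the mean ± SD of 5 samples. All 5 lines rise in both Rras2 panels, the Rras and Rap1a lines stay close to level, and the line of replicate 1 falls steeply for Rap2a and Rap2b.

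The other R-Ras genes did not pass. Rras, whose protein favors integrin activation, had log2 signals of 6.69, 6.51, 6.77, 6.87 and 6.65 in control samples 1 to 5 and of 6.71, 6.41, 6.74, 6.81 and 6.70 in mye-macrophage samples 1 to 5. The groups overlapped almost fully, and sample 2 was the lowest in both. The log2 fold change of Rras was -0.03 (0.982-fold, 95% interval 0.888 to 1.09, adjusted p = 0.911 from blocked limma). Mras, a member that works with Shoc2 in activating Raf kinases, had 3.62, 3.59, 3.63, 4.07 and 3.63 in the control samples and 4.42, 4.07, 3.68, 4.36 and 3.39 in the mye-macrophage samples. Control sample 4 stood above the other controls, and mye-macrophage sample 5 was the lowest of all 10. The pair differences of Mras ran from -0.24 in pair 5 to 0.80 in pair 1, with a log2 fold change of 0.28 (1.21-fold, 95% interval 0.990 to 1.48, adjusted p = 0.438 from blocked limma). Without pair 1 the value was 0.15, without pair 5 it was 0.41, and with the actin gap added to the fit it was 0.10 (adjusted p = 0.955 from blocked limma).

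Nras, the classical Ras gene that could be read, differed more between replicate numbers than between groups. Its first probe set had log2 signals of 8.28, 7.67, 8.19, 8.41 and 8.05 in the control samples and of 8.39, 7.77, 8.43, 8.49 and 8.15 in the mye-macrophage samples. Sample 2 was the lowest and sample 4 the highest in each group, so the SD within a group was 0.28 and 0.30 while the SD of the pair differences was 0.07. Nras was higher in 5 of 5 pairs, by 0.09 to 0.25, but the log2 fold change of 0.13 did not pass (1.09-fold, 95% interval 0.987 to 1.21, adjusted p = 0.478 from blocked limma). The second probe set of Nras gave a log2 fold change of -0.04, with pair differences from -0.45 in pair 1 to 0.30 in pair 3 (adjusted p = 0.923 from blocked limma). Its value was 0.06 without pair 1 and 0.01 without pair 5.

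Rap1a and Rap1b, which encode nearly identical proteins, did not pass, and their first probe sets varied little. Rap1a had log2 signals of 8.33, 8.22, 8.38, 8.38 and 8.48 in the control samples and of 8.35, 8.36, 8.34, 8.42 and 8.44 in the mye-macrophage samples. The groups overlapped, and the log2 fold change was 0.02 (1.02-fold, 95% interval 0.916 to 1.13, adjusted p = 0.928 from blocked limma). The second Rap1a probe set gave -0.02 (95% interval -0.18 to 0.14 on the log2 scale), and it turned to 0.01 without pair 4 and after quantile normalization. Rap1b had 10.55, 10.37, 10.63, 10.50 and 10.58 in the control samples and 10.36, 10.16, 10.64, 10.46 and 10.52 in the mye-macrophage samples. It was lower in 4 of 5 pairs, with a log2 fold change of -0.10 (0.935-fold, 95% interval 0.841 to 1.04, adjusted p = 0.620 from blocked limma). The second Rap1b probe set, with a mean signal below the median of all values, had -0.14 and was likewise lower in 4 of 5 pairs (adjusted p = 0.543 from blocked limma). With the actin gap added to the fit, the Rap1b values were -0.04 and -0.06. As for Nras, sample 2 was the lowest of its group in both groups on the first Rap1b probe set.

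Rap2a and Rap2b had the widest intervals of the Rap genes, and the sign of both turned without pair 1. Rap2a had log2 signals of 4.41, 4.03, 4.20, 3.88 and 3.75 in the control samples and of 3.49, 4.52, 4.03, 3.78 and 3.74 in the mye-macrophage samples. Control sample 1 was the highest control, and mye-macrophage sample 1 was the lowest of all 10 samples. Rap2b, whose mean signal was below the median of all values, had 2.02, 2.05, 1.78, 1.93 and 1.67 in the control samples and 1.27, 2.20, 2.04, 1.86 and 1.53 in the mye-macrophage samples, and mye-macrophage sample 1 was again the lowest. Pair 1 differed by -0.92 in Rap2a and by -0.75 in Rap2b, while the other 4 pairs ran from -0.16 to 0.49 and from -0.14 to 0.26. The log2 fold changes were -0.14 (95% interval -0.49 to 0.22) and -0.11 (95% interval -0.40 to 0.18), with adjusted p = 0.787 and 0.792 from blocked limma. Rap2a was lower in 4 of 5 pairs, by only 0.001 in pair 5, and Rap2b was lower in 3. Without pair 2, the pair in which Rap2a rose, the log2 fold changes were -0.295 and -0.17. Without pair 1 they were 0.06 and 0.05. The beta-actin gap differed most in pair 1, by 0.82 against -0.21 to 0.45 in the other pairs. With the gap as a covariate, the log2 fold change was -0.00665 for Rap2a and 0.10 for Rap2b (adjusted p = 0.998 and 0.942 from blocked limma). The part of RNA quality in the Rap2a and Rap2b values was not tested.

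**Figure D2:**
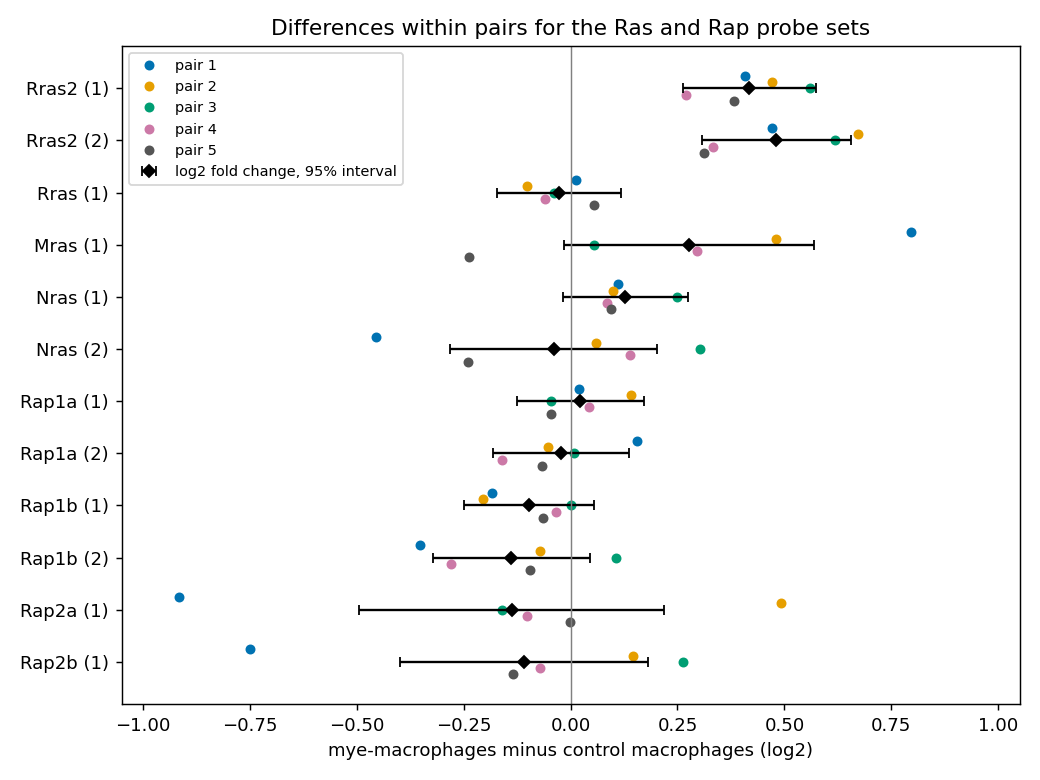
Mye-macrophages minus control macrophages on the log2 scale for the 12 member probe sets, with the 5 pair differences as colored points and the log2 fold change of blocked limma with its 95% interval in black. Only the intervals of the 2 Rras2 probe sets exclude 0, and pair 1 lies far to the left for Rap2a and Rap2b.

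The 12 log2 fold changes had a median of -0.02, against 0.00436 over all probe sets. Of the 10 probe sets other than those of Rras2, 3 had values above 0, where 51.6% of all probe sets did. At an unadjusted p under 0.05, blocked limma gave 2 of 12, both of Rras2, where 12.1% of all probe sets reached it. The variance filter kept 8 of the 12 probe sets, and 10 of 12 had a mean signal above the median of all values. With the probe sets of a gene averaged, Rras2 had a log2 fold change of 0.45 (adjusted p = 0.0250 from blocked limma over 14217 genes), and the other 7 genes ran from -0.14 to 0.28 with adjusted p of 0.361 or more.

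Genes that load, switch off, anchor or answer to Ras and Rap, and other Ras-like GTPases, were then read in 7 lists. Each gene was read by 1 probe set, the one of highest mean. Of 90 listed genes 79 had a probe set, and 0 were called in either direction by blocked limma. At an unadjusted p under 0.05, 6 were higher and 4 lower, or 12.7% of the 79, against 12.6% of all 14217 named genes, and without the block there were 5. Their median log2 fold change was -0.01, and 48.1% were above 0, against 51.9% of all named genes. The other Ras-like GTPases, which are neither regulators nor effectors, gave 20 of the 79 genes, 14 of them above 0. At an unadjusted p under 0.05 in blocked limma they gave 3, Rhebl1, Rasl11b and Rem1, all higher.

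Exchange factors, which switch the GTPases on, were not called. For Ras, the 8 genes measured ran from -0.06 to 0.16 on the log2 scale, with the lowest p for Rasgrp2, a calcium-sensitive factor known for Rap1 in platelets (0.16, adjusted p = 0.517), and Rasgrp3 (0.12, adjusted p = 0.792, both from blocked limma). For Rap, the 6 genes measured had a median of -0.04. Rapgef5 (-0.26, higher in 0 of 5 pairs, adjusted p = 0.335) and Dock4 (-0.26, higher in 1, adjusted p = 0.413) had the lowest p in blocked limma.

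Among the GTPase-activating proteins, Rasa4 had the lowest p. Rasa4, a calcium-dependent protein that turns Ras off, had log2 signals of 7.38, 7.35, 6.95, 7.36 and 7.15 in the control samples and of 7.998, 7.71, 7.27, 7.64 and 7.75 in the mye-macrophage samples. Only mye-macrophage sample 3 lay within the range of the controls, and the control of its pair was the lowest. The log2 fold change of Rasa4 was 0.43 (standard error 0.08, adjusted p = 0.0545 from blocked limma), with 5 of 5 pairs higher. With p-values adjusted over the variance-filtered probe sets it passed (adjusted p = 0.0272 from blocked limma), and without the block it did not (adjusted p = 0.996 from limma). Rasa1, the p120 Ras GTPase-activating protein, had -0.27 and was lower in 5 of 5 pairs (adjusted p = 0.170 from blocked limma), with 0.07 on its second probe set. Among the 7 that act on Rap, Rap1gap2 had -0.33 and was lower in 5 of 5 pairs (adjusted p = 0.108), and Garnl3 had 0.14 (adjusted p = 0.486, both from blocked limma).

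Of the 25 effectors listed 19 were measured, with a median of -0.05 on the log2 scale. Ralgds, the exchange factor through which Ras and R-Ras proteins activate Ral GTPases, had log2 signals of 6.55, 5.31, 7.02, 7.08 and 6.47 in the control samples and of 7.10, 5.58, 7.26, 7.56 and 6.84 in the mye-macrophage samples. Sample 2 was more than 1 log2 unit below the others in both groups, and the groups overlapped. Every pair was higher, and the log2 fold change was 0.38 (standard error 0.07, adjusted p = 0.0650 from blocked limma, and 0.0325 over the variance-filtered probe sets). Rassf1, a scaffold with a Ras association domain, had -0.15 and was lower in 5 of 5 pairs (adjusted p = 0.379 from blocked limma). The 11 enzymes and carriers of prenylation and membrane anchoring ran from -0.08 to 0.15 on their probe sets of highest mean. Pggt1b, with -0.01 there, had -0.26 on its second probe set, which was higher in 0 of 5 pairs (adjusted p = 0.229 from blocked limma). The beta subunit of farnesyltransferase, Fntb, had 0.15 (adjusted p = 0.475), and Rap1gds1, which binds small GTPases before they reach the membrane, had 0.12 (adjusted p = 0.610, both from blocked limma). Among 20 other Ras-like GTPases, Rhebl1, a relative of Rheb, had 0.29 (adjusted p = 0.243), and Rasl11b had 0.19 (adjusted p = 0.363, both from blocked limma), both at mean signals below the median of all values, as were Rasgrp2, Rapgef5 and Garnl3.

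**Figure D3:**
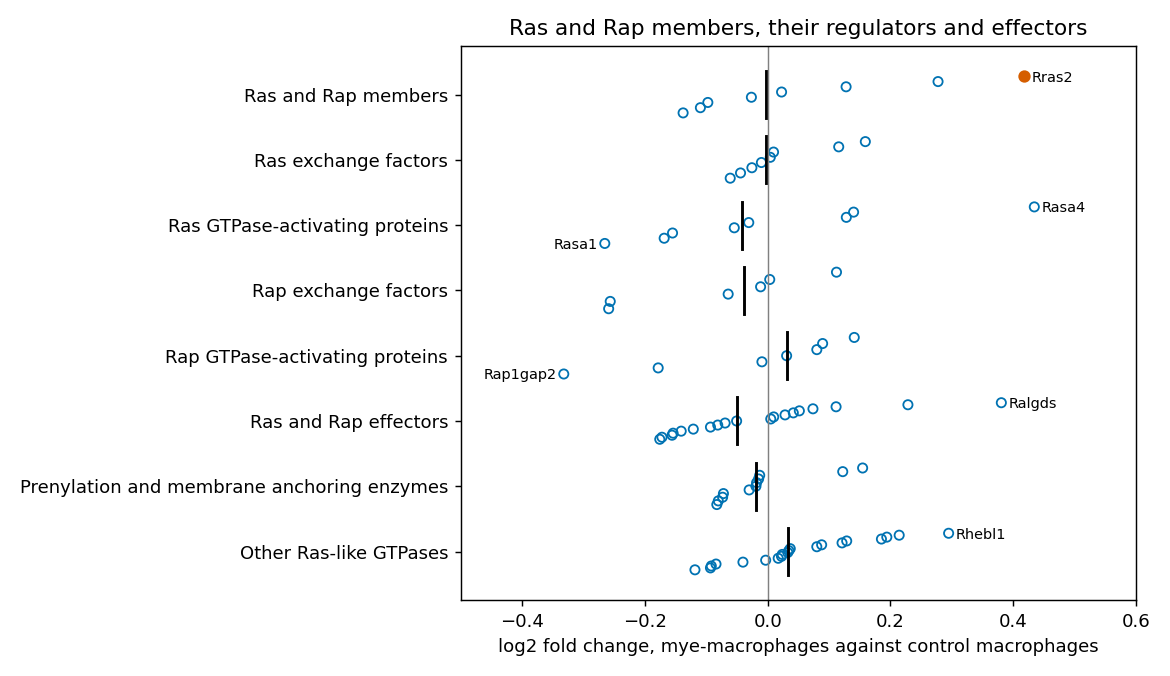
Log2 fold changes of the Ras and Rap members and of 7 lists of their regulators, their effectors and other Ras-like GTPases. Each gene has 1 point (its probe set of highest mean), and a black bar marks each median. The filled point, Rras2 at 0.42, is the gene called by blocked limma, and Rasa4 at 0.43 and Ralgds at 0.38 are open since they did not pass over all probe sets.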

How the data were processed

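The values of the 10 Affymetrix rat arrays were deposited on the log2 scale, 1 per probe set, after RMA by the authors with the affy package (version not given in the sources used here). The 57 control probe sets were left out. The medians of the arrays (2.30 to 2.35) are low for RMA values, and the reason is not known. Of 31042 probe sets, 20826 have 1 gene symbol, 436 several and 9780 none in the annotation table. Mye-macrophages and control macrophages were compared by lmFit and eBayes (limma 3.58.1, R 4.3.3) in a fit with replicate number as block, and by Benjamini-Hochberg adjustment over all 31042 probe sets, at a threshold of 0.05. The deviations of same-numbered samples correlated at 0.404 to 0.791, above the 0.1 set for pairing, and at most at 0.279 across numbers. The pairing comes from the numbers in the labels. The methods name an unpaired test after a variance filter, and both were run as alternatives, besides other filters, scalings, weights, priors, the beta-actin gap and each pair left out. The fit was tested on simulated data. The members, the gene lists and the pairing were chosen with earlier results of these data known. Those results had shown that same-numbered samples deviate together, so passing the 0.1 set for pairing is no independent check. Named were all member probe sets and, per list, the 2 genes of lowest p, as none was called. The number of arrays limits the precision.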

Additional observations from a re-analysis of the deposited data

Results flagged for a closer look

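In the 24 groups of 5 samples (12 probe sets in each group), 2 held a sample far from the others by Dixon's test, where chance gives about 1 in 20. Rras in mye-macrophage sample 2 was low, at 6.41 against 6.70 to 6.81 in the other 4, and control sample 2 was also the lowest of its group. Mras in control sample 4 was high, at 4.07 against 3.59 to 3.63 in the other controls.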

How the results depend on the processing

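Over the array, blocked limma called 128 probe sets. The number was 0 without the replicate block (1385 at an unadjusted p under 0.05, limma), 0 without the block over the variance-filtered probe sets (1032, limma; chosen after seeing the data) and 0 by the methods' t-test after adjustment (778). It was 418 with the variance filter, 337 with the filter on dim probe sets, 239 with array weights, 648 with a trended robust prior and 3 with the beta-actin gap, and 11 to 300 with a pair left out (11 without pair 2, 300 without pair 3). Of the 2 member calls, both of Rras2, 0 remained without the block (2 at an unadjusted p under 0.05, limma). Over the variance-filtered probe sets without the block, 0 remained as well. By the methods' t-test 0 remained after adjustment, while both Rras2 probe sets had an unadjusted p under 0.05. The methods name no adjustment for this test, and the paper lists RRAS2 in its upregulated gene pool. With the gap 0 remained, and 0 with any pair left out, where fewer samples enter. Rras2 kept its direction in 31 of 31 refits and its call in 13, with log2 fold changes of 0.38 to 0.46 and of 0.43 to 0.52 on its 2 probe sets. Refits without the block, with a filter, with the trended prior or by the t-test change only the standard error or the adjustment. They return the same log2 fold change, so no direction could turn in them, for Rras2 or for the other members. The number of list genes called was 2 with the variance filter, the dim filter, array weights or averaged probe sets (Rasa4 and Ralgds each time) and 4 with the trended robust prior (also Rasa1 and Rap1gap2). The other members passed in 0 of 157 refits, and 10 values turned. The variance filter left out Rras, both Rap1a probe sets and the first Rap1b probe set. The filter on dim probe sets left out Rap2b and the second Rap1b probe set. In refits with these filters they got no adjusted p and could not pass. The second Nras probe set gave 0.14 with the gap and -0.124 to 0.0647 with a pair left out. Rap1a gave -0.000233 with averaged probe sets and -0.00714 to 0.0399 with a pair left out, and its second probe set 0.0103 after quantile normalization and -0.0680 to 0.0114. Rap2a ran from -0.295 to 0.0567 and Rap2b from -0.203 to 0.0505 with a pair left out, and Rap2b was 0.10 with the gap. The cause was not tested. A lone sample adds nothing to the blocked contrast, so both samples of a pair were left out.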

Other observations

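The genes whose pair differences were most like those of Rras2 were sought among 12135 named probe sets with a mean signal at or above the median of all values. After the mean of each pair was subtracted, the highest Pearson r with the mean of both Rras2 probe sets was 0.994 for Adi1, followed by 0.990 for Cd320, 0.986 for Irak1, and 0.985 each for Fbxl5 and Ubxn1, over 10 arrays that hold only 5 pair differences. These are the extremes of many values over few pairs, and the arrays share their pairs and normalization. Subtracting the pair means leaves the difference between the groups in r. Since Rras2 rose in every pair, any probe set that rises evenly over the pairs has a high r in advance, however small its rise. Adi1, an enzyme gene of methionine salvage, had a log2 fold change of 0.27, Cd320, the receptor gene for cobalamin uptake, 0.20, and Fbxl5, a ubiquitin ligase gene of iron sensing, 0.29. Irak1, a kinase gene of interleukin-1 signaling, and Ubxn1 had 0.07 each. The paper, by an unpaired test, lists IRAK1 in its downregulated gene pool. None of the 5 passed (adjusted p from 0.0971 to 0.700, blocked limma). Without subtracting the pair means, r was 0.714, 0.611, 0.200, 0.636 and 0.244 in the same order.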
